A study of Mus musculus with 18 samples.

Results

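Long noncoding RNA genes that mouse Th17 cultures transcribe at high levels were described over 6 groups of libraries. A gene was taken as a member when the deposited table gave its biotype as lncRNA and its level averaged at least 5 TPM (a level corrected for exon length and depth) over all 18 libraries. This rule gave 108 members out of 12665 long noncoding RNA genes in a table of 45703 genes, and 8120 of those 12665 genes were listed at 0 in all 18 libraries. The same mean level was reached by 8460 of 21843 protein-coding genes. The members were thus chosen by their measured levels, and those levels are given as a description. The members just inside the limit were Ube2d-ps (5.24 TPM), Gm52717 (5.14 TPM) and LOC102633472 (5.08 TPM), and the genes just outside it were LOC108169147 (4.99 TPM), Kantr (4.98 TPM) and LOC100041877 (4.93 TPM). For 14 members, among them H19, Pvt1, Gm34401 and Gm52717, the mean fell below 5 TPM once the group with the highest level was set aside, so these passed the limit through a group difference.

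Long noncoding RNAs are transcripts that are spliced and polyadenylated like messenger RNAs, as a rule, but code for no known protein. Some are hosts: their introns or exons hold small nucleolar RNAs (snoRNAs), which guide the chemical modification of ribosomal RNA, or hairpins that are cut into microRNAs, and the host transcript is often spliced only to be degraded. Others are known as structural RNAs of the nucleus (Malat1), as the RNA that coats the inactive X chromosome (Xist), as imprinted transcripts (H19) or as RNAs transcribed beside a protein-coding gene (Pvt1 beside Myc). In helper T cells microRNA-155, made from Mir155hg, is a textbook example of an RNA needed for effector responses.

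Naive CD4+ T cells had been activated through CD3 and CD28 and driven by polarizing cytokines to become Th17 cells, the helper lineage named for interleukin-17. Their genotypes were wild type, Slc2a3 fl/fl Cd4-cre (here GLUT3KO, without the glucose transporter GLUT3) and Acly fl/fl Cd4-cre (here ACLYKO, without ATP citrate lyase, the enzyme that makes cytosolic acetyl-CoA from citrate). After 48 hours of polarization each genotype was kept for 24 hours in plain medium or with acetate, which cells can also turn into acetyl-CoA, at 20 mM according to the sample protocols and 10 mM according to the series text. PMA plus ionomycin then restimulated all cultures for 5 hours, with brefeldin A and monensin added, and polyadenylated RNA was sequenced from 3 libraries per group. Cd4-cre is active from the thymus on in the T cell lineage, so deletion precedes polarization. The labels give no age or sex, do not say whether the wild type carried Cre, and give the background as C57BL/6 except in 6 libraries where the last number runs upward. They also do not say whether replicates were separate mice, so p-values here measure the spread between these libraries, which may be technical.

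The mature microRNAs of the 3 best-known microRNA hosts among the members are shown because the host is what the poly(A) libraries measure while the hairpin product itself is not measured. Sequences are from RefSeq (GRCm38.p6), and capitals mark the seed, bases 2 to 8, which pairs with targets. They lie at chr16:84714143-84714165 and chr16:84714182-84714202 (+ strand, Mir155hg), chr11:75463734-75463755 and chr11:75463772-75463793 (+ strand, Mir22hg), and chr7:142577112-142577133 and chr7:142577078-142577099 (- strand, H19). No seed was shared among these 6.
miR-155-5p: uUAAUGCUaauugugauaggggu
miR-155-3p: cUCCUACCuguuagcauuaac
miR-22-5p: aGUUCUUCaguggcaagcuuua
miR-22-3p: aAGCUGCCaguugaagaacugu
miR-675-5p: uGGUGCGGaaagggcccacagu
miR-675-3p: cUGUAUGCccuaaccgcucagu

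SnoRNA hosts are known for starts that begin with C followed by a run of pyrimidines, the same start that ribosomal protein genes use. RefSeq start regions could be matched for 88 of the 108 members. A C at the annotated start followed by 4 bases that are each C or T was present in 3 of 16 snoRNA hosts with a sequence (18.8%), in 5 of 88 members (5.68%) and in 671 of 27026 genes of the table (2.48%). The 3 hosts that held it are shown with the 2 most abundant named hosts, Gas5 and Snhg1, which did not hold it at the annotated base. Capitals mark the first 12 transcribed bases, with 20 bases before and 38 after. The windows are chr3:123508287-123508356 (- strand, Snhg8), chr11:106500895-106500964 (+ strand, Gm36220), chr17:24528231-24528300 (+ strand, Rab26os), chr1:161034581-161034650 (+ strand, Gas5) and chr19:8723467-8723536 (+ strand, Snhg1). A match is a description of letters and not of a start that these data measured.
Snhg8: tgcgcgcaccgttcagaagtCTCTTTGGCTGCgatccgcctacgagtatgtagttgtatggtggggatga
Gm36220: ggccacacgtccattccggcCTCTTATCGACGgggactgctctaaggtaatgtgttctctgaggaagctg
Rab26os: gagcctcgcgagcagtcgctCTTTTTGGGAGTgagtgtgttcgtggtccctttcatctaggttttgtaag
Gas5: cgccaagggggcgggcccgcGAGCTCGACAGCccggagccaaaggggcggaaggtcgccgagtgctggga
Snhg1: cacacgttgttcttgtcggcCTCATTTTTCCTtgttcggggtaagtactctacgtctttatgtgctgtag
In windows from 250 bases before to 50 after the start, searched on both strands, the TATA box letters TATAAA were present in 6 of 16 hosts (37.5%), 14.8% of members and 14.2% of all genes. The E-box CACGTG, the core site of Myc and its relatives, was present in 12.5% of the hosts, 12.5% of members and 7.24% of all genes. The AP-1 letters TGANTCA were present in 0 of 16 hosts, 9.09% of members and 7.92% of all genes.

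Depths recovered from TPM and exon length ran from 18.7 to 30.1 M reads (M is 1000000), with a median of 23.3 M. The 5 libraries wild type 1, GLUT3KO 1 and 3, ACLYKO 1 and ACLYKO with acetate 1 are called those that stood apart. These libraries were known from earlier results of these data and fixed before the fits here, so leaving them out is not an independent check. Along the axis that held 63.6% of the variance within groups they scored 35.6, 31.9, 4.1, 90.2 and 29.5. GLUT3KO 3 lay between GLUT3KO 1 and GLUT3KO 2 (-36) there, so this axis alone does not set it apart. Results are given without the 5 where they matter. Slc2a3 was at 17.7 ± 2.91 TPM in wild type and 6.17 ± 2.10 in GLUT3KO (SD, n = 3), and Acly was at 396 ± 4.27 in wild type and 11.3 ± 3.85 in ACLYKO. T cell markers summed to 1371 to 2785 TPM in every library, with wild type at 1851 to 2021, GLUT3KO at 2471 to 2785 and ACLYKO at 1371 to 1629. Summed markers of B cells, myeloid cells, neutrophils and erythroid cells stayed at or below 5.64 TPM, with C1qa and Elane at 0 everywhere. CD8 T cell markers summed to 3.98 to 19.9 TPM. The 3 NK markers summed to 1.17 to 2.15 TPM in wild type, 8.57 to 19.9 in GLUT3KO and 3.87 to 4.99 in ACLYKO. With acetate they summed to 1.49 to 2.875 TPM in wild type, 15.3 to 26.6 in GLUT3KO and 4.43 to 5.41 in ACLYKO, so both knockouts lay above wild type. The 5 Th17 markers summed to 1374 to 1578 TPM in wild type, 3117 to 4126 with acetate, 319 to 396 in GLUT3KO, 2237 to 2603 with acetate, 389 to 510 in ACLYKO and 1072 to 1298 with acetate. How far these sums bear on the changes of the members was not tested.

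Transcripts of the members made up a small and unevenly shared part of the RNA. Their summed level was 8896 ± 1808 TPM in wild type, 6149 ± 1395 in GLUT3KO and 7416 ± 1604 in ACLYKO without acetate, and 8908 ± 444, 7811 ± 33.5 and 7443 ± 1169 with acetate (SD, n = 3). A total of 14 members had a mean of 100 TPM or more and 45 a mean below 10 TPM, with a median of 13.9 TPM. The unnamed gene 2410006H16Rik, which holds 3 snoRNAs, had the highest mean, 1313 TPM, followed by Gas5. The 10 highest members of each library held 61.2% to 76.5% of its summed level. Of the 108 members 36 had a given name, 19 held 46 snoRNA genes on their strand and 6 held a microRNA hairpin. The noncoding label is that of the deposited table: of 80 members matched to GENCODE M21, 7 are protein_coding there (Gm20716, Gm38431, Gm48551, Gm28043, Gm20605, 1500011B03Rik and A630089N07Rik). By position against the nearest protein-coding gene, 24 overlapped it antisense, 14 overlapped it in sense, 10 started divergently within 1000 bases of its start and 60 did neither. Where the annotation overlaps, reads of a member and its neighbour may be shared, since the sources used here do not say whether counting used the strand.

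**Figure D1:**
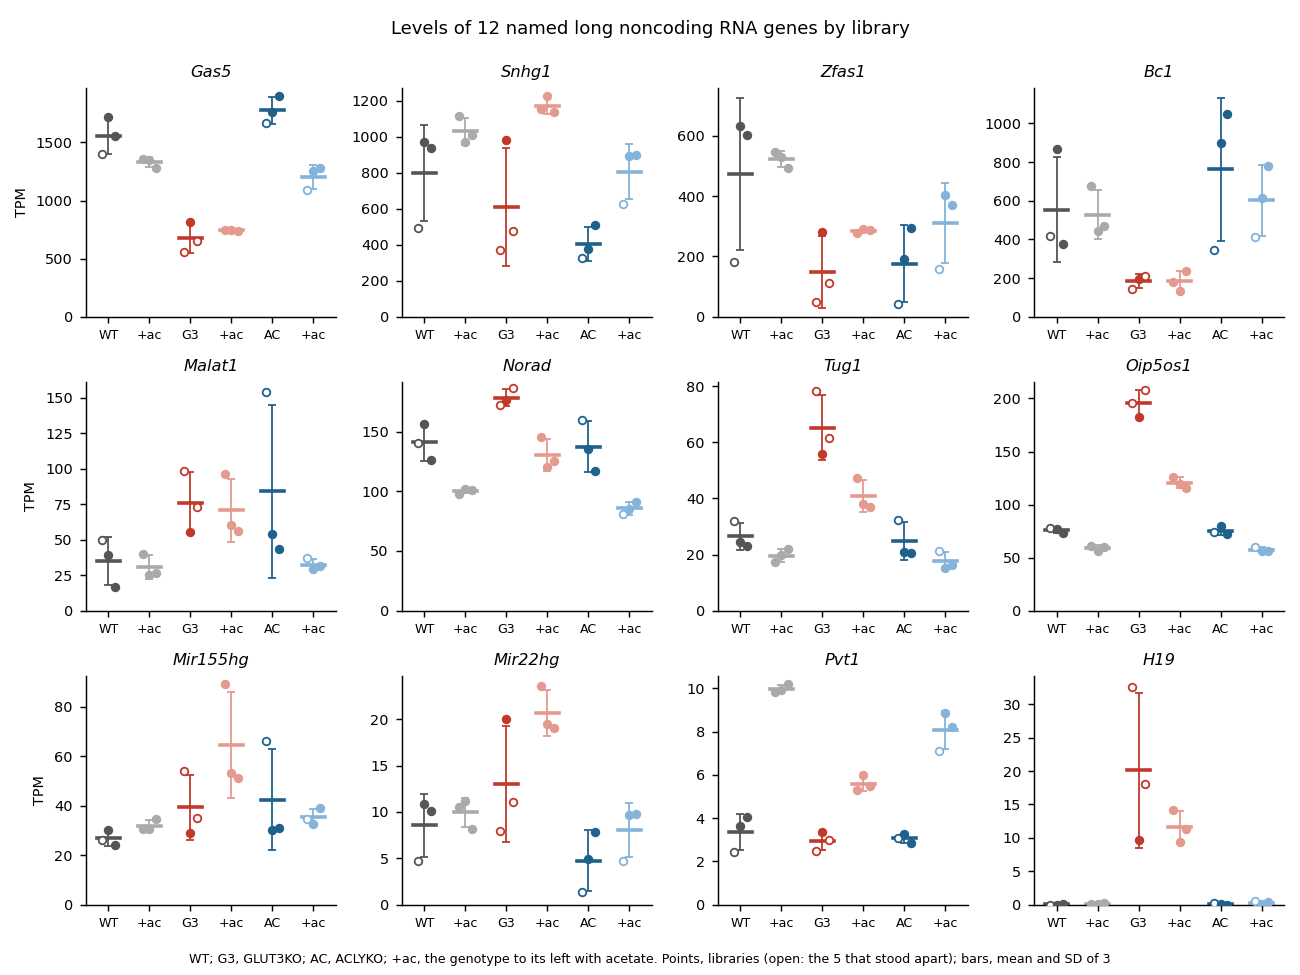
Levels in TPM (linear axis from 0) of 12 members with given names in all 18 libraries, grouped by genotype and acetate; points are libraries, open points the 5 that stood apart, and bars are mean ± SD of 3 (G3, GLUT3KO; AC, ACLYKO; +ac, with acetate). Gas5 and Bc1 are lower and Oip5os1, Tug1 and H19 higher in GLUT3KO, Pvt1 is higher with acetate in all 3 genotypes, and Zfas1 and Snhg1 are scattered within groups.

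Fits with limma on log2(TPM + 1) over all 14229 genes with at least 1 TPM in at least 3 libraries, which all 108 members passed, gave calls at an adjusted p under 0.05. Under GLUT3 loss (GLUT3KO against wild type) 18 members were higher, where 24.9% of all genes were called higher, and 16 were lower, where 8.47% were called lower. The members' shares were 16.7% and 14.8%. The split depended on the scaling: median-ratio scaling gave 17 higher and 29 lower and quantile normalization 16 and 31. Those fits called 4854 and 4982 of all genes in either direction, where the main fit called 4753. The median over all genes was 0.17 by TPM but -0.0091 with median-ratio scaling, so the table as a whole shifted toward lower. How all genes split by direction under other scalings was not counted, here or in later comparisons. The shares of 24.9% and 8.47% are thus no background for those splits. Under ACLY loss (ACLYKO against wild type) 6 were higher and 16 lower, beside a background of 12.7% and 6.38%. A fit with the replicate number as a block, 1 effect per number shared by all 18 libraries, called 9 higher and 25 lower. A fit of only these 2 groups called 0 and 4, and a fit without the libraries that stood apart called 23 and 34. Over all genes those 3 fits called 3292, 342 and 7068 genes, so the count moved for the table as a whole. With acetate in both groups, GLUT3KO against wild type gave 21 higher and 16 lower members beside a background of 20.9% and 9.5%, and quantile normalization gave 13 and 23. ACLYKO against wild type with acetate gave 8 higher and 6 lower beside 11.5% and 1.98%. That split was 4 and 12 under median-ratio scaling and 5 and 11 under quantile normalization, and the total of 14 fell to 6 or 7 without any 1 wild type library with acetate or without ACLYKO with acetate 1 or 3. GLUT3KO against ACLYKO gave 26 higher and 18 lower beside 25.2% and 15.2%, with 24 and 25 under quantile normalization.

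Acetate itself gave 8 members higher and 3 lower in wild type, beside a background of 4.22% and 2.28%. The total of 11 fell to 4 without wild type 1, to 7 without wild type 2 and to 5, 5 and 6 without each acetate library in turn. It was 18 higher and 16 lower without the libraries that stood apart. Over all genes that last fit called 3889, where the main fit called 925. In GLUT3KO acetate gave 13 higher and 14 lower beside 4.86% and 7.89%. Median-ratio scaling gave 18 and 9 and quantile normalization 17 and 11, and the total of 27 fell to 15 without GLUT3KO 1, 13 without GLUT3KO 3 and 17, 13 and 13 without each acetate library in turn. In ACLYKO acetate gave 22 higher and 9 lower beside 11.7% and 5.6%, and 21 and 14 under quantile normalization. A fit of only the 2 ACLYKO groups called 6, all higher (Gm19585, Gm14718, Gm13546, B230118I11Rik, Pvt1 and Gm52717), and the fit without the 5 libraries that stood apart called 36 and 19. Over all genes those fits called 424 and 5783, where the main fit called 2458. The acetate change of ACLYKO differed from that of wild type for 5 members, all with the larger rise in ACLYKO, beside a background of 0.78% with a higher and 0.562% with a lower difference. Quantile normalization gave 2 and 1 there, a fit of only these groups gave 0, and leaving out any 1 of 9 of the 12 libraries left 2 or 3. The acetate change of GLUT3KO differed from that of wild type for 0 members by limma and by voom on recovered reads, with 10 members at an unadjusted p under 0.05, and for 0.225% and 0.548% of all genes. These comparisons share libraries, so their counts are not independent of each other. Among the 14 members that passed the level limit through 1 group, 6 were called higher and 1 lower under GLUT3 loss, and 3, 5 and 5 higher and 0, 2 and 1 lower under acetate in wild type, GLUT3KO and ACLYKO.

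**Figure D2:**
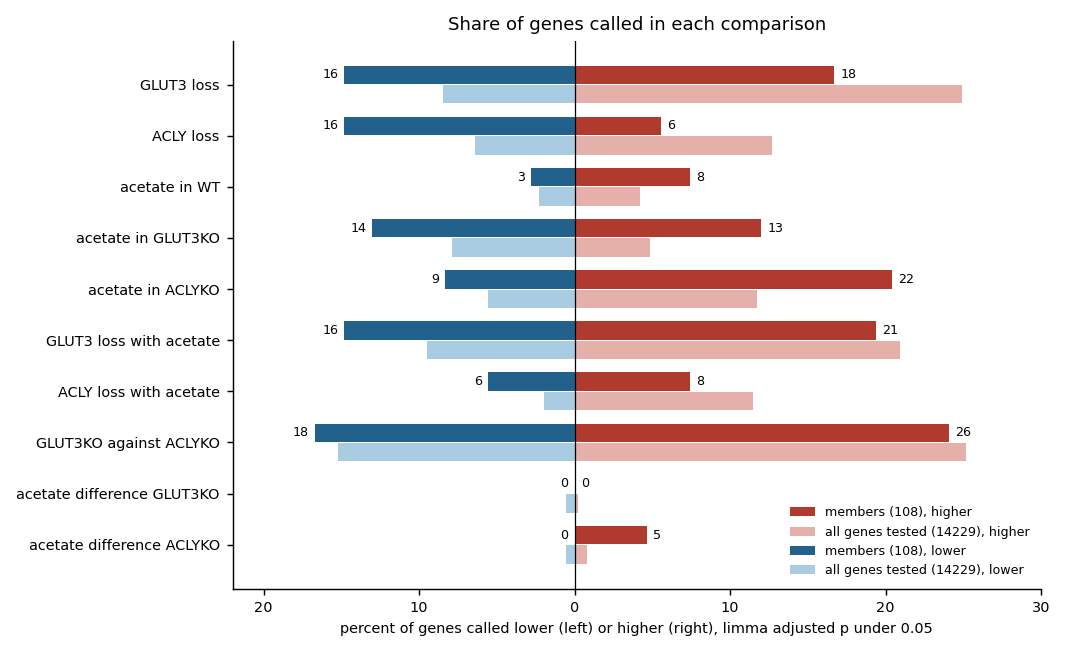
Share of the 108 members and of all 14229 tested genes called higher or lower in each of 10 comparisons, in percent, with the members' counts printed at the bars. Under GLUT3 loss the share of members called higher (16.7%) lies below that of all genes (24.9%) and the share called lower (14.8%) above it (8.47%).

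The summed level of the snoRNA hosts was lowest in GLUT3KO without acetate. The 19 hosts summed to 4593, 7276 and 6741 TPM in wild type and 2476, 4671 and 3019 in GLUT3KO, and to 6287, 6252 and 5791 against 4686, 4853 and 4644 with acetate. ACLYKO held 3344, 4838 and 5603 TPM without and 3885, 5315 and 5181 with acetate. The 2 lowest values of GLUT3KO and the lowest of wild type, of ACLYKO and of ACLYKO with acetate belong to the libraries that stood apart, and without acetate the ranges of wild type and GLUT3KO overlapped. With acetate all 3 GLUT3KO libraries lay below all 3 of wild type. In bulk RNA, fewer cells of a type and less RNA per cell cannot be told apart.

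Gas5, the growth arrest-specific host of 8 snoRNA genes at chr1:161034601-161038539 (+ strand), was lower in GLUT3KO in every library. It stood at 1400, 1717 and 1552 TPM in wild type, 558, 815 and 653 in GLUT3KO and 1664, 1760 and 1902 in ACLYKO. With acetate it stood at 1359, 1353 and 1279 TPM in wild type, 746, 749.8 and 734 in GLUT3KO and 1087, 1251 and 1279 in ACLYKO. GLUT3KO stood below the other genotypes without overlap in both media, while wild type and ACLYKO overlapped without acetate. Gas5 fell by 1.22 ± 0.14 (SE) on the log2 scale under GLUT3 loss (limma, adjusted p = 1.36e-05) and by 0.84 ± 0.14 with acetate (adjusted p = 0.000412), and both calls held under all alternatives run. Under ACLY loss its change was 0.19 ± 0.14 (adjusted p = 0.378). Acetate lowered Gas5 in ACLYKO by 0.56 ± 0.14 (adjusted p = 0.0144), a call that was lost without ACLYKO with acetate 1 (adjusted p = 0.0554), under voom (0.0893) and in a fit of only the ACLYKO groups (0.232).

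Snhg4 and Epb41l4aos, 2 further hosts on chromosome 18, fell under GLUT3 loss as well. Snhg4 stood at 12.6, 23.7 and 21.7 TPM in wild type and 4.67, 5.58 and 4.495 in GLUT3KO, with no overlap, a fall by 1.74 ± 0.33 (limma, adjusted p = 0.000817). Epb41l4aos, transcribed from the opposite strand 338 bases from Epb41l4a, stood at 67.3, 105 and 120.5 TPM and 19.1, 35.9 and 24.9, a fall by 1.84 ± 0.39 (adjusted p = 0.00213). These 2 and Gas5 were the 3 of 19 hosts called under GLUT3 loss, with 0 called higher, beside 8.47% of all genes called lower and 24.9% higher. The median change of the 19 was -0.83, beside 0.17 over all genes.

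The number of hosts called depended on the libraries and the scaling. Under GLUT3 loss 9 hosts were lower under median-ratio scaling and 10 under quantile normalization. Those fits called 4854 and 4982 of all 14229 genes in either direction. The share of all genes called lower in them was not counted, so the host counts have no background of their own. Without the libraries that stood apart, which leaves 1 GLUT3KO library, the median was -0.53. Under ACLY loss limma called 0 hosts, with 7 of 19 lower at an unadjusted p under 0.05, voom called 0, and the median was -0.65. The fit with the replicate number as a block called 6 lower, and 12 were lower and 1 higher when those 5 libraries were dropped. Over all 14229 genes those fits called 3292 and 7068, so the count moved for the table as a whole. Acetate in wild type changed 0 hosts by limma and by voom, with 0 at an unadjusted p under 0.05. Without the 5 libraries that stood apart 3 were higher and 3 lower, and 3889 of all genes were called. In GLUT3KO acetate gave 1 host higher, beside 4.86% of all genes, and a median of 0.85. The replicate block of this paired comparison gave 5 higher, with 2045 of all genes called in either direction. Without the 5 libraries that stood apart, which leaves 1 GLUT3KO library, the median was 0.05. In ACLYKO acetate gave 2 higher and 1 lower with a median of 0.60. It gave 6 higher and 1 lower under the replicate block, and 10 higher and 3 lower without the 5 libraries. Over all genes these 3 fits called 2458, 2514 and 5783.

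Snhg1 and Zfas1 were among the hosts that varied within groups. Snhg1, host of 8 snoRNA genes divergent from Slc3a2, stood at 492, 969 and 938 TPM in wild type, 369.6, 982 and 478 in GLUT3KO and 329, 375 and 508 in ACLYKO. With acetate it stood at 1114, 969.8 and 1007 TPM in wild type, 1153, 1224 and 1135 in GLUT3KO and 628, 889.9 and 897 in ACLYKO. The low values of wild type 1, GLUT3KO 1 and GLUT3KO 3 are those of libraries that stood apart, whereas all 3 ACLYKO libraries were low. Its acetate change in GLUT3KO, 1.07 ± 0.32 (limma, adjusted p = 0.0429), was 0.25 without the 5 libraries that stood apart, which leaves 1 GLUT3KO library. Its change under ACLY loss was -0.94 ± 0.32 (adjusted p = 0.0545), and the replicate block gave an adjusted p of 0.0246. Zfas1, host of 3 snoRNA genes and antisense to Znfx1, stood at 182, 634 and 602 TPM in wild type, 49.9, 281 and 113 in GLUT3KO and 41.9, 192 and 294 in ACLYKO, and within each group the lowest library was number 1. Under GLUT3 loss its change was -1.81 ± 0.70 (adjusted p = 0.0606). Without the libraries that stood apart, which leaves 1 GLUT3KO library, the change was -1.13. Under ACLY loss it was -1.62 ± 0.70 (adjusted p = 0.125), with an adjusted p of 0.0316 under the replicate block.

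**Figure D3:**
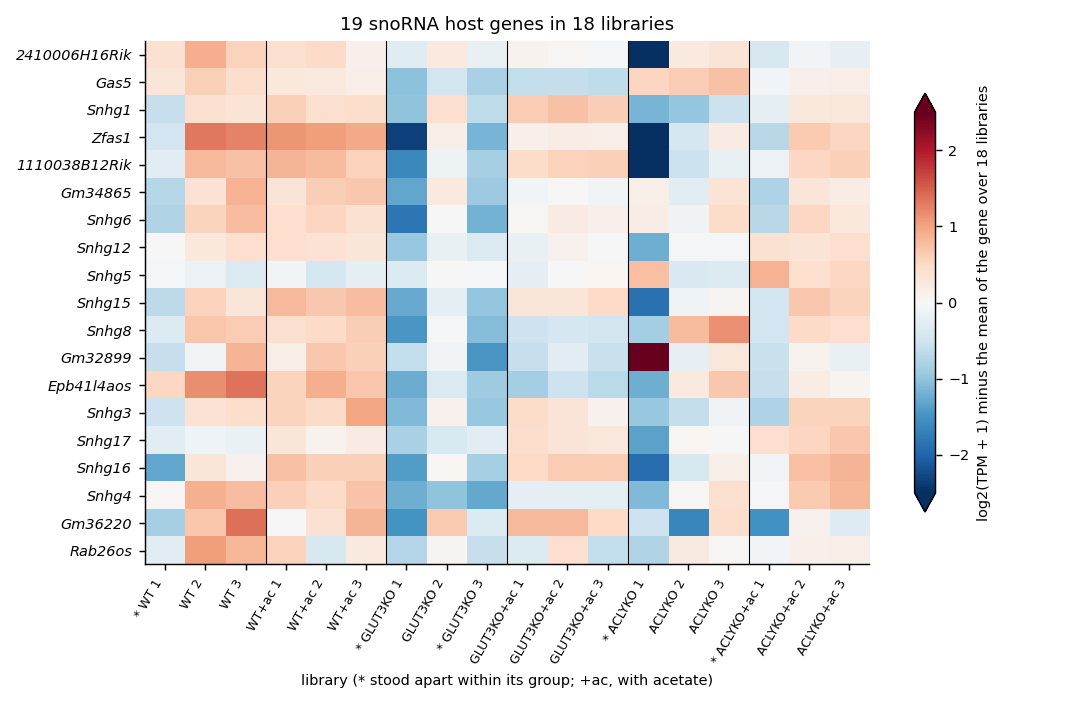
Level of each of the 19 snoRNA hosts in each of 18 libraries as log2(TPM + 1) minus the gene's mean, on a colour scale that ends at 2.5 in both directions; * marks the 5 libraries that stood apart. Gas5, Snhg4 and Epb41l4aos are low in all GLUT3KO libraries, while Zfas1 and 1110038B12Rik are lowest in marked libraries.

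Of 13 genes for snoRNP core and assembly proteins, which bind snoRNAs, 9 were lower and 0 higher under GLUT3 loss, where 8.47% of all genes were called lower and 24.9% higher. Their median was -0.96, beside 0.17 over all genes. Examples were the box C/D methyltransferase fibrillarin (Fbl, -0.90), its partner Nop56 (-1.04), the pseudouridine synthase dyskerin (Dkc1, -1.35) and Nop10 (-1.51). Under ACLY loss 1 was higher, the assembly factor Nufip1 (0.42), and 0 were lower, beside 12.7% and 6.38% of all genes, with a median of -0.02. Under acetate their median change was 0.01 in wild type, 0.08 in GLUT3KO and 0.11 in ACLYKO. Of 16 factors of nonsense-mediated decay, the pathway known to degrade many snoRNA host transcripts, 4 were higher under GLUT3 loss and 0 lower, a share higher like that of all genes (24.9%), with a median of 0.48. The 4 were Smg1, the kinase of the pathway (0.77), its endonuclease Smg6 (0.81), Dhx34 (0.83) and Nbas (0.91). Under ACLY loss 1 was higher, Smg1 (0.51), beside 12.7% of all genes.

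Bc1, a short neuronal RNA polymerase III transcript of chr7:144914470-144914623 (+ strand) whose sequence founds the rodent ID repeats, was low in GLUT3KO. Reads of ID repeats elsewhere may be counted here, so its values are uncertain. It stood at 418, 868 and 376 TPM in wild type, 142, 197 and 212 in GLUT3KO and 345, 896 and 1049 in ACLYKO. Cultures with acetate held 674, 442 and 467 TPM in wild type, 180, 135 and 236 in GLUT3KO and 412, 616 and 778 in ACLYKO. All 6 GLUT3KO libraries lay below all 12 others. Bc1 fell by 1.50 ± 0.41 under GLUT3 loss (limma, adjusted p = 0.0111), and without wild type 2, its highest wild type library, by 1.13 (adjusted p = 0.0682). With acetate it fell by 1.53 ± 0.41 (adjusted p = 0.0107), with adjusted p of 0.0509 without wild type with acetate 1 and 0.0531 without GLUT3KO with acetate 2.

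Oip5os1, Tug1 and H19 were the named members with the clearest higher level in GLUT3KO. Oip5os1 (Cyrano, known to trigger the decay of microRNA-7, chr2:119594296-119600746, + strand) stood at 78.2, 76.9 and 73.1 TPM in wild type, 196, 182 and 208 in GLUT3KO and 73.9, 79.5 and 72.1 in ACLYKO. With acetate it stood at 60.7, 55.7 and 60.4 TPM in wild type, 126, 119 and 116 in GLUT3KO and 60.1, 56.0 and 56.2 in ACLYKO. Every GLUT3KO library lay above every other library of its medium, and ACLYKO overlapped wild type in both media. Oip5os1 rose by 1.35 ± 0.10 under GLUT3 loss (limma, adjusted p = 1.76e-07) and by 1.02 ± 0.10 with acetate (adjusted p = 2.83e-06), and differed by -0.02 ± 0.10 under ACLY loss (adjusted p = 0.923). In GLUT3KO acetate lowered it by 0.69 ± 0.10 (adjusted p = 0.000547), a call that held under all alternatives run. Acetate also lowered it in wild type and in ACLYKO, without overlap of the libraries. Both of those falls were called, and both calls were lost under the replicate block. The acetate change of GLUT3KO was not called different from that of wild type.

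Tug1, a conserved RNA of nucleus and cytoplasm that starts divergently from Morc2a (chr11:3639785-3648814, - strand), followed a like order. It stood at 31.9, 24.3 and 23.1 TPM in wild type, 78.4, 55.9 and 61.5 in GLUT3KO and 32.5, 21.1 and 20.6 in ACLYKO, with GLUT3KO above the other genotypes without overlap. Tug1 rose by 1.27 ± 0.20 under GLUT3 loss (limma, adjusted p = 0.000206) and by 1.02 ± 0.20 with acetate (adjusted p = 0.00138). Malat1, the abundant RNA of nuclear speckles, stood at 49.6, 38.9 and 16.6 TPM in wild type, 98.7, 55.7 and 73.4 in GLUT3KO and 154, 54.1 and 43.5 in ACLYKO. Its changes of 1.19 ± 0.44 under GLUT3 loss (adjusted p = 0.0529) and 1.14 ± 0.44 under ACLY loss (adjusted p = 0.0902) did not pass the threshold, and the replicate block of the second gave an adjusted p of 0.0127. The highest library of wild type, GLUT3KO and ACLYKO was number 1 each time, a library that stood apart.

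Norad, a cytoplasmic RNA known to bind Pumilio proteins, was lower with acetate in each genotype. It stood at 141, 156 and 126 TPM in wild type and 98.1, 102 and 102 with acetate, at 173, 176 and 186 in GLUT3KO and 146, 120.5 and 126 with acetate, and at 160, 135 and 117 in ACLYKO and 80.9, 84.8 and 91.2 with acetate. In each genotype the 3 acetate libraries lay below the 3 without it. The fall was 0.67 ± 0.13 in ACLYKO (limma, adjusted p = 0.00264), lost in a fit of only those groups (0.164). It was 0.48 ± 0.13 in wild type (adjusted p = 0.0448) and 0.45 ± 0.13 in GLUT3KO (adjusted p = 0.0377), and under the replicate block the adjusted p were 0.118 and 0.082.

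H19, the imprinted RNA that is silenced in most adult tissues and holds the hairpin of the miR-675 sequences above, was near 0 outside GLUT3KO. It stood at 32.6, 9.68 and 18.1 TPM in GLUT3KO and 14.2, 9.403 and 11.4 with acetate, against 0, 0 and 0.0621 in wild type and 0.162, 0.0374 and 0 in ACLYKO. Its reads numbered 1286 over the 3 GLUT3KO libraries and 2 over those of wild type, a ratio of levels of 754 with a 95% exact counting interval of 208 to 6.23e+03. With acetate the reads were 826 and 11, a ratio of 91.8 (51.1 to 185). The intervals cover counting error only. H19 rose by 4.22 ± 0.29 on the log2(TPM + 1) scale (limma, adjusted p = 7.81e-08), a scale that compresses low levels, by 7.26 with a pseudocount of 0.1 and by 3.37 without the libraries that stood apart. It passed the limit of 5 TPM only through GLUT3KO, so that it differs there follows in part from how the members were chosen.

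Xist stood at 14.5, 7.497 and 7.84 TPM in wild type, 22.5, 11.3 and 19.4 in GLUT3KO and 23.9, 16.3 and 15.4 in ACLYKO. The 4 Y-linked genes Ddx3y, Eif2s3y, Kdm5d and Uty summed to at least 48.8 TPM in every library, so Xist and Y-linked RNA were both present in all 6 groups. Their sums ran from 57.9 to 103.5 TPM in wild type, 136.7 to 190.1 in GLUT3KO and 53.6 to 123.7 in ACLYKO. With acetate the sums ran from 48.8 to 55.6 in wild type, 81 to 109.2 in GLUT3KO and 55.7 to 86.3 in ACLYKO. Xist's change was 0.78 ± 0.29 under GLUT3 loss (limma, adjusted p = 0.0528) and 0.86 ± 0.29 under ACLY loss (adjusted p = 0.0516), and the replicate block of the second gave an adjusted p of 0.0026. Of 17 nuclear, X-linked and imprinted RNAs listed by name 11 were tested, 6 of them members. Under GLUT3 loss 5 of the 11 rose and 0 fell, beside 24.9% and 8.47% of all genes, with a median of 0.78, and under ACLY loss their median was 0.06. Besides Tug1 and H19 these 5 were Neat1, the scaffold of paraspeckles (1.90 ± 0.17, adjusted p = 8.65e-07), Firre (0.77) and Airn (0.78), which averaged below 5 TPM. H19 met the filter of 1 TPM in 3 libraries through GLUT3KO, so its part in this count follows in part from that filter. Of 19 paraspeckle and speckle proteins 1 rose under GLUT3 loss (Fam98a) and 2 under ACLY loss, the paraspeckle protein Pspc1 (1.49) and Cpsf6 (0.46). Of all genes 24.9% were called higher under GLUT3 loss and 12.7% under ACLY loss.

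The 6 microRNA hosts summed to 149.5 ± 9.87 TPM in wild type, 166 ± 21.2 in GLUT3KO and 155 ± 36.7 in ACLYKO. Under GLUT3 loss 1 was higher (H19) and 1 lower (Snhg4), beside 24.9% and 8.47% of all genes. H19 passed the limit of 5 TPM only through GLUT3KO, so its rise follows in part from the choice of members. Mir155hg, the primary transcript of miR-155, stood at 26.1, 29.96 and 23.96 TPM in wild type, 53.98, 28.96 and 34.8 in GLUT3KO and 65.9, 30.2 and 31.1 in ACLYKO. With acetate it stood at 30.4, 30.5 and 34.7 TPM in wild type, 89.1, 53.2 and 51.3 in GLUT3KO and 34.4, 32.4 and 38.97 in ACLYKO. Without acetate the first library of GLUT3KO and of ACLYKO was high, GLUT3KO overlapped wild type and the lower ACLYKO libraries lay just above it. With acetate GLUT3KO lay above wild type. That difference of 0.95 ± 0.29 (limma, adjusted p = 0.0216) was lost under median-ratio scaling (0.0867) and quantile normalization (0.0854). It was also lost without wild type with acetate 1 (0.0641) or 2 (0.0652) or GLUT3KO with acetate 1 (0.115). Mir22hg stood at 4.67, 10.9 and 10.1 TPM in wild type, 7.897, 20.02 and 11.1 in GLUT3KO and 1.33, 4.94 and 7.89 in ACLYKO, with overlap between wild type and both knockouts.

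Among the genes that process and use microRNAs, 5 of 11 tested were higher and 1 lower under GLUT3 loss, beside 24.9% and 8.47% of all genes, with a median of 0.96. The silencing scaffolds Tnrc6a (2.21), Tnrc6b (2.22) and Tnrc6c (1.55) and the Argonautes Ago3 (1.43) and Ago2 (0.96) rose, and Dicer1, which cuts the hairpin, fell by 0.82. Under ACLY loss 1 was higher, Dgcr8 (0.79), and 2 were lower, Ago2 (-0.68) and Tnrc6b (-0.93), with a median of 0.23. Of all genes 12.7% were called higher and 6.38% lower there.

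The largest rises under GLUT3 loss among the unnamed members were those of Gm34401 and 2310016D23Rik. Gm34401 (chr2:75274220-75285457, - strand) lies 166517 bases from the nearest protein-coding gene. It stood at 1.64, 1.55 and 1.86 TPM in wild type, 11.2, 18.7 and 13.3 in GLUT3KO and 2.24, 1.12 and 2.14 in ACLYKO, and at 26.6, 24.04 and 20.5 in GLUT3KO with acetate. GLUT3KO lay far above both other genotypes. Gm34401 passed the limit of 5 TPM through GLUT3KO with acetate, so its difference there follows in part from the choice of members. Without acetate the rise was 2.49 ± 0.24 (limma, adjusted p = 2.08e-06). 2310016D23Rik (chr1:60778461-60803769, + strand) stood at 8.18, 5.41 and 5.58 TPM in wild type, 37.1, 32.4 and 49.7 in GLUT3KO and 1.796, 4.11 and 2.01 in ACLYKO. The 3 genotypes did not overlap, with GLUT3KO highest and ACLYKO lowest. It rose by 2.46 ± 0.24 under GLUT3 loss (adjusted p = 2.27e-06) and fell by 1.06 ± 0.24 under ACLY loss (adjusted p = 0.00642). In GLUT3KO acetate brought it to 12.8, 10.4 and 10.8 TPM, a fall by 1.71 ± 0.24 (adjusted p = 0.000379), while in ACLYKO its acetate change was 0.34 ± 0.24 (adjusted p = 0.354).

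Of the members called under GLUT3 loss 22 of 34 held their call under every alternative run. Among the risers were Dubr, a nuclear RNA studied in muscle differentiation (0.91 ± 0.17, limma, adjusted p = 0.00091), and Gm41331 (1.59 ± 0.27, adjusted p = 0.000373). Dubr stood at 13.1, 8.26 and 7.83 TPM in wild type, 19.1, 17.5 and 19.6 in GLUT3KO and 19.5, 21.9 and 21.5 in ACLYKO, with both knockouts above wild type. Gm44505 rose by 2.03 ± 0.49 (adjusted p = 0.00492), but its span lies in sense over the zinc finger gene Zfp91, which rose by 2.18, so the reads of both may be shared. Gm46272 fell by 1.41 ± 0.18 (adjusted p = 2.43e-05).

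The largest fall under ACLY loss was that of a member with no read in any ACLYKO library. Gm35082 (chr7:100675007-100678142, + strand) stood at 14.1, 10.7 and 31.6 TPM in wild type and 67.4, 46.9 and 57.5 in GLUT3KO, and had 0 reads in all 6 ACLYKO libraries. With acetate wild type held 6.195, 4.47 and 15.7 TPM and GLUT3KO 26.5, 17.9 and 14.8. Its 812 reads over the wild type libraries, against a floor of 3 reads over the group, make the level in wild type at least 239-fold higher than in ACLYKO, and at least 122-fold higher with acetate (419 reads). Under GLUT3 loss it rose by 1.68 ± 0.39 (limma, adjusted p = 0.00349), which was 1.29 without the libraries that stood apart, which leaves 1 GLUT3KO library.

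A further 3 members kept their fall under ACLY loss in every alternative, the fit of only those 2 groups included, which called no other member. Gm19585 (chr17:52149289-52163486, + strand) stood at 24.9, 24.4 and 20.8 TPM in wild type, 9.13, 11.7 and 17.2 in GLUT3KO and 4.702, 2.25 and 1.97 in ACLYKO, in that order and without overlap. It fell by 2.67 ± 0.25 under ACLY loss (limma, adjusted p = 4.95e-06) and by 0.87 ± 0.25 under GLUT3 loss (adjusted p = 0.014), the second lost without GLUT3KO 1 (0.0739). Gm13546 (chr2:58163974-58177063, + strand) stood at 6.77, 15.02 and 12.8 TPM in wild type, 0.686, 1.58 and 1.27 in GLUT3KO and 1.58, 1.09 and 1.26 in ACLYKO, where both knockouts lay below wild type and overlapped each other. It fell by 2.48 ± 0.24 (adjusted p = 2.06e-06) and 2.38 ± 0.24 (adjusted p = 1.06e-05), and with a pseudocount of 0.1 by 3.18 and 2.98. B230118I11Rik stood at 10.1, 7.48 and 5.19 TPM in wild type and 0.707, 1.49 and 0.746 in ACLYKO, a fall by 2.10 ± 0.25 (adjusted p = 5.69e-05), or 2.85 with a pseudocount of 0.1.

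Among members with given names, ACLY loss raised Brip1os by 1.15 ± 0.18 (limma, adjusted p = 0.000446) and Dubr by 1.06 ± 0.17 (adjusted p = 0.000608) and lowered Map2k3os, which starts divergently from the kinase gene Map2k3, by 1.15 ± 0.21 (adjusted p = 0.00151). Each of these calls was lost only in the fit of the 2 groups alone. Gm16350 went in opposite directions in the knockouts. It stood at 29.9, 22.03 and 18.1 TPM in wild type, 61.1, 71.5 and 65.8 in GLUT3KO and 1.68, 7.696 and 6.45 in ACLYKO, with no overlap among the 3. It rose by 1.49 ± 0.33 under GLUT3 loss (adjusted p = 0.00257) and fell by 2.10 ± 0.33 under ACLY loss (adjusted p = 0.000437), or by 1.38 without the libraries that stood apart. GLUT3KO stood 3.59 ± 0.33 above ACLYKO on the log2 scale (adjusted p = 7.6e-07). In all, 12 members were called under both losses without acetate, which share the wild type libraries. The losses called 4753 (GLUT3) and 2715 (ACLY) of all 14229 genes. How many genes were called under both was not counted, so the 12 are not read as a trait of the members.

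Acetate raised a few members in all 3 genotypes. Pvt1, the RNA downstream of Myc (chr15:62037986-62260215, + strand), stood at 2.44, 3.62 and 4.03 TPM in wild type and 9.81, 9.91 and 10.2 with acetate. In GLUT3KO it went from 2.48, 3.33 and 2.98 to 5.31, 5.98 and 5.49, and in ACLYKO from 3.10, 3.25 and 2.83 to 7.11, 8.84 and 8.22. The acetate libraries lay above the others in each genotype without overlap. Pvt1 rose by 1.35 ± 0.15 in wild type (limma, adjusted p = 7.52e-05), 0.75 ± 0.15 in GLUT3KO (adjusted p = 0.00364) and 1.15 ± 0.15 in ACLYKO (adjusted p = 6.36e-05), and all 3 calls held under every alternative run. Pvt1 passed the limit of 5 TPM through wild type with acetate, so its rise there follows in part from the choice of members. With acetate GLUT3KO stayed below wild type, with a log2 difference of -0.74 ± 0.15 (adjusted p = 0.00125).

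Gm52717, on chromosome 4 (chr4:32156978-32160903, - strand), rose from 1.26, 1.37 and 0.964 TPM to 11.4, 10.7 and 5.36 in wild type, from 0.7004, 1.12 and 1.37 to 3.91, 4.45 and 3.78 in GLUT3KO and from 0.186, 0.946 and 1.44 to 11.6, 16.6 and 15.5 in ACLYKO. These are rises by 2.15 ± 0.27 (limma, adjusted p = 0.000277), 1.30 ± 0.27 (adjusted p = 0.00617) and 3.11 ± 0.27 (adjusted p = 3.14e-06) from near 1 TPM on the log2(TPM + 1) scale, and voom on recovered reads gave 2.92, 2.10 and 4.46. Gm52717 passed the limit of 5 TPM through ACLYKO with acetate, so its rise there follows in part from the choice of members. Gm14718 went from 14.7, 19.8 and 21.9 TPM to 55.96, 50.2 and 50.5 in wild type, from 3.55, 6.01 and 2.27 to 10.3, 14.98 and 9.63 in GLUT3KO and from 3.26, 6.89 and 5.33 to 27.7, 39.3 and 38.1 in ACLYKO. Both knockouts lay below wild type without acetate, and the groups with acetate lay above their untreated counterparts. It rose by 1.44 ± 0.28 (adjusted p = 0.00599), 1.40 ± 0.28 (adjusted p = 0.00456) and 2.58 ± 0.28 (adjusted p = 1.95e-05), after falls of 2.05 ± 0.28 under GLUT3 loss (adjusted p = 5.09e-05) and 1.71 ± 0.28 under ACLY loss (adjusted p = 0.000623; 0.0505 in a fit of those groups alone). 4833419F23Rik rose from 3.97, 4.12 and 4.36 to 13.1, 12.2 and 12.3 TPM in wild type, by 1.39 ± 0.21 (adjusted p = 0.00101), and by 1.04 and 1.01 in GLUT3KO and ACLYKO (adjusted p = 0.00461 and 0.00344, the last 0.135 in a fit of only the ACLYKO groups).

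Among the other named members and the most abundant unnamed ones, acetate gave further calls. Rab10os, antisense to the vesicle transport gene Rab10, went from 29.5, 31.5 and 29.5 to 22.1, 19.2 and 20.7 TPM in GLUT3KO and from 23.4, 31.4 and 30.2 to 16.6, 16.9 and 14.3 in ACLYKO. It fell by 0.79 ± 0.14 in ACLYKO (limma, adjusted p = 0.000858; 0.114 in a fit of only those groups) and by 0.53 ± 0.14 in GLUT3KO (adjusted p = 0.0198; 0.0566 under the replicate block). Map2k3os, low in ACLYKO at 1.66, 3.24 and 3.19 TPM against 7.498, 5.74 and 8.08 in wild type, reached 5.54, 7.87 and 6.495 with acetate, a rise by 1.07 ± 0.21 (adjusted p = 0.00268; 0.106 in a fit of only those groups). 5430416N02Rik went from 34.7, 43.5 and 44.5 to 84.3, 85.7 and 94.4 TPM in GLUT3KO, a rise by 1.10 ± 0.17 (adjusted p = 0.00084) that held under all alternatives run. Chaserr, whose span overlaps the chromatin remodeller gene Chd2 in sense, stood at 4.71, 4.54 and 4.92 TPM in wild type with acetate and 10.3, 10.01 and 9.94 in GLUT3KO with acetate. This is a difference of 0.95 ± 0.24 (adjusted p = 0.00694), lost under quantile normalization (0.0701). Over the 36 members with given names, acetate raised 1 and lowered 2 in wild type, where 4.22% and 2.28% of all genes were called. It raised 2 and lowered 6 in GLUT3KO, beside 4.86% and 7.89%, and raised 4 and lowered 7 in ACLYKO, beside 11.7% and 5.6%. The counts in wild type and the rises in GLUT3KO and ACLYKO are near those shares.

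Other members answered acetate in the knockouts. Gm19585 went from 24.9, 24.4 and 20.8 to 42.3, 39.7 and 33.8 TPM in wild type, from 9.13, 11.7 and 17.2 to 31.7, 35.3 and 44.8 in GLUT3KO and from 4.702, 2.25 and 1.97 to 17.6, 23.6 and 19.7 in ACLYKO. It rose by 1.51 ± 0.25 in GLUT3KO (limma, adjusted p = 0.00119) and 2.47 ± 0.25 in ACLYKO (adjusted p = 9.69e-06), while in wild type the change was 0.70 ± 0.25 (adjusted p = 0.119). With acetate Gm13546 reached 19.9, 22.2 and 19.1 TPM in wild type, 4.64, 5.21 and 4.46 in GLUT3KO and 11.3, 17.7 and 13.5 in ACLYKO, so that ACLYKO overlapped untreated wild type and GLUT3KO stayed below it. Its rise was 2.70 ± 0.24 in ACLYKO (adjusted p = 3.59e-06) and 1.43 ± 0.24 in GLUT3KO (adjusted p = 0.00143), and voom gave 3.44 and 2.18. Gm41331, by contrast, went from 14.9, 15.7 and 12.1 to 77.4, 40.4 and 46.7 TPM in GLUT3KO, a rise by 1.83 ± 0.27 (adjusted p = 0.000587), and from 2.19, 1.52 and 2.67 to 0.288, 1.42 and 1.198 in ACLYKO, a change of -0.70 ± 0.27 (adjusted p = 0.0939). With acetate the difference of ACLYKO from wild type was -2.29 ± 0.27 (limma, adjusted p = 0.000121), or -3.20 with a pseudocount of 0.1. The test of the acetate change between ACLYKO and wild type passed for Gm16350, Gm19585, Gm13546, B230118I11Rik and 4930417O13Rik.

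**Figure D4:**
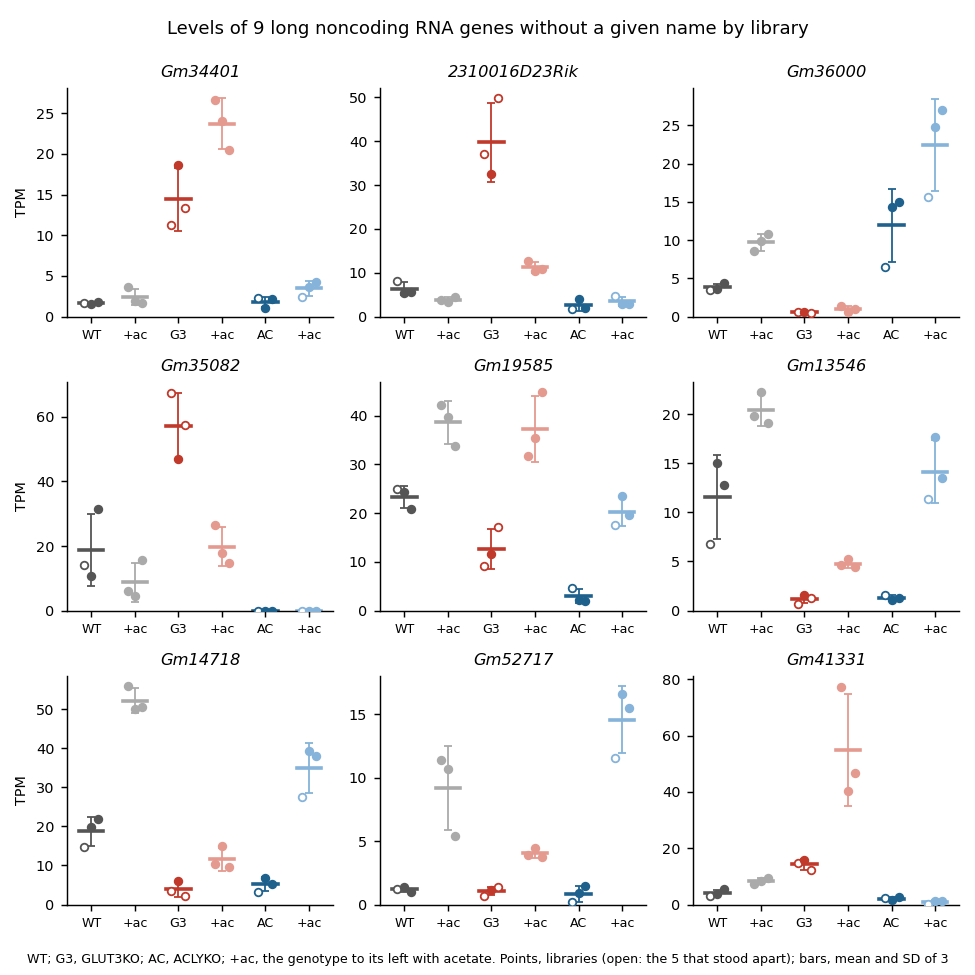
Levels in TPM (linear axis from 0) of 9 unnamed members in all 18 libraries, grouped by genotype and acetate; points are libraries, open points the 5 that stood apart, and bars are mean ± SD of 3 (G3, GLUT3KO; AC, ACLYKO; +ac, with acetate). Gm35082 is at 0 in all ACLYKO libraries, Gm34401 and 2310016D23Rik are high in GLUT3KO, and Gm52717 and Gm14718 are higher with acetate in each genotype.

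Several members lie near genes with known T cell functions. Gm36000 lies 43699 bases from Il2, the T cell growth factor gene. Gm36000 stood at 3.42, 3.66 and 4.37 TPM in wild type, 0.566, 0.646 and 0.5199 in GLUT3KO and 6.45, 14.3 and 15.1 in ACLYKO, and the 3 genotypes did not overlap. It fell by 1.61 ± 0.26 under GLUT3 loss (limma, adjusted p = 0.00026), or by 2.53 with a pseudocount of 0.1, and rose by 1.35 ± 0.26 under ACLY loss (adjusted p = 0.00223; 0.111 in a fit of those groups alone). Il2 fell by 3.63 under GLUT3 loss and rose by 1.23 under ACLY loss, both called. Acetate raised Il2 by 1.24 in wild type and 2.49 in GLUT3KO, with 0.05 in ACLYKO, where the changes of Gm36000 were 1.15, 0.35 and 0.91. The first and last of these were called (adjusted p = 0.0163 and 0.0273) and were lost in 4 and 6 alternatives, the first without wild type 1 (0.0679) or 2 (0.0555) and without wild type with acetate 2 (0.0628) or 3 (0.0722).

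The neighbours of other members are given side by side with them. Gm14718 lies 7765 bases from Cd40lg, the gene of the CD40 ligand, which fell by 1.78 under GLUT3 loss like Gm14718 but rose by 1.00 under ACLY loss, where Gm14718 fell. Cd40lg rose by 1.25 and 0.71 with acetate in wild type and GLUT3KO. 2310016D23Rik lies 5102 bases from the costimulatory receptor gene Cd28. Cd28 rose by 1.04 under GLUT3 loss and fell by 1.17 under ACLY loss, and acetate changed it by -0.43 in GLUT3KO and 1.06 in ACLYKO, each called. Gm13546 overlaps Cytip, a regulator of T cell adhesion, antisense. Cytip fell by 1.35 under ACLY loss and rose by 1.68 with acetate in ACLYKO, while under GLUT3 loss its change of -0.41 was not called. Gm19585 lies 315999 bases from the chromatin organizer gene Satb1, which rose by 0.75 under GLUT3 loss, where Gm19585 fell, and fell by 1.42 under ACLY loss, where Gm19585 fell too.

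4833419F23Rik starts 594 bases from Map3k8 in the opposite direction, and Map3k8 rose with acetate by 0.83 in wild type, while its changes of 0.33 in GLUT3KO and -0.06 in ACLYKO were not called. Pvt1 lies 47625 bases from Myc. Myc fell by 1.12 under GLUT3 loss and rose by 0.65 under ACLY loss, where Pvt1 was not called, and its acetate changes of 0.62, 0.53 and 0.16 were not called, where Pvt1 rose. Gm52717 lies 77510 bases from Bach2, which was called in 0 of these 5 comparisons. Gm16350 is antisense to Arhgef10, whose changes of 0.97 and -0.59 under GLUT3 and ACLY loss and 0.85 with acetate in ACLYKO were called and had the signs of those of Gm16350. Gm35330, which passed the limit of 5 TPM through ACLYKO with acetate, lies 136878 bases from the zinc finger gene Klf6. Gm35330 rose with acetate by 1.73 ± 0.25 in GLUT3KO (limma, adjusted p = 0.000457) and 1.19 ± 0.25 in ACLYKO (adjusted p = 0.0038; 0.0708 in a fit of only those groups), and Klf6 rose by 0.76 in GLUT3KO and changed by -0.37 in ACLYKO, not called. In GENCODE M21, 21.5% of the exon bases of Gm16350 and 0% of those of Gm13546 lie over exons of protein-coding genes on the other strand, so without stated strand counting some reads of Gm16350 and Arhgef10 may be shared.

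**Figure D5:**
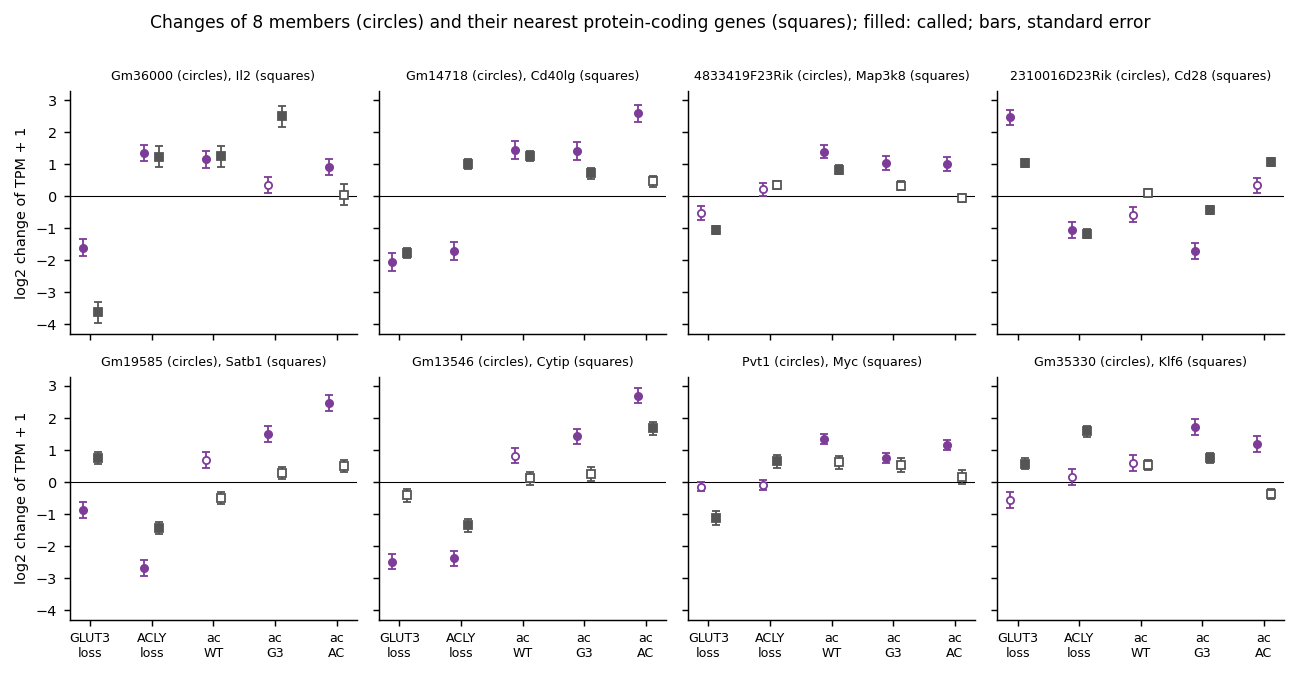
Log2 change ± SE of 8 members (circles) and their neighbouring protein-coding genes (squares) in 5 comparisons: GLUT3 loss, ACLY loss and acetate in each genotype; filled symbols passed the adjusted p threshold, ac marks acetate, G3 GLUT3KO and AC ACLYKO. Gm36000 and Il2 are both lower under GLUT3 loss and higher under ACLY loss, while Pvt1 and Myc differ in which comparisons were called.

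Many abundant members passed no threshold. Of 7 comparisons against a control group (each loss without and with acetate and acetate in each genotype), 40 of 108 members were called in 0 and 68 in at least 1. The like share of all genes was not counted, so these counts do not set the members apart from other genes. The 40 include 2410006H16Rik, which stood at 1574, 2269 and 1798 TPM in wild type, 974, 1428 and 1062 in GLUT3KO and 196, 1436 and 1514 in ACLYKO. Both knockouts lay below wild type, ACLYKO 1 far below the rest, and the changes were -0.71 ± 0.54 and -1.30 ± 0.54 (limma, adjusted p = 0.335 and 0.107). Gm15564 stood at 1.88, 153 and 9.59 TPM in GLUT3KO and 0, 33.2 and 89.8 in ACLYKO, and Gm46178 at 0, 469 and 389 in ACLYKO, each at 0 in ACLYKO 1. Members whose changes were near 0 include AI662270 (0.04 ± 0.23 under GLUT3 loss, adjusted p = 0.914) and Trmt61b (-0.29 ± 0.18, adjusted p = 0.233), which the table gives as noncoding although its symbol is that of a tRNA methyltransferase. A p that misses the threshold does not show that these levels were equal.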

How the data were processed

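Polyadenylated RNA of 18 libraries (6 groups of 3) was sequenced as single-end 75-nt reads. Alignment with STAR 2.7.2b, counting with featureCounts 1.6.4, cutadapt, bcl2fastq 2.20.0.422 and the build GRCm38.p6 are named in the submitters' processing notes. The authors deposited 1 table of TPM, written with decimal commas and therefore recorded here under the unit other; each column sums to 1000000. A strand setting for the counting is not given in the sources read for these results. TPM times exon length gave whole reads for 100% of values under 500 reads (tolerance 0.01) after scaling each library, from which the depths of 18.7 to 30.1 M reads come.

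Genes with at least 1 TPM in at least 3 libraries were tested on log2(TPM + 1) with limma 3.58.1 (R 4.3.3; trend and robust) over all 18 libraries, with Benjamini-Hochberg adjustment over all 14229 genes within each comparison and two-sided calls under 0.05. The pseudocount makes fold changes of low genes smaller. Over all genes the median log2 change under GLUT3 loss was 0.17 by TPM and -0.0091 after median-ratio scaling. The members and lists were chosen with earlier results of these data known, and the libraries that stood apart were known from the same source. Named are members with a given name, the 10 highest others, and in each of 5 comparisons up to 3 rises and 3 falls of the others with libraries that do not overlap, together with neighbours and list genes. Gm16350, B230118I11Rik and 4930417O13Rik, and the genes just outside the level limit, were named after their values were seen. Counting intervals are exact 95% intervals.

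Same-numbered libraries deviated together for acetate within each genotype (correlations from 0.12 to 0.548 over genes). They also did so for wild type and ACLYKO without acetate (0.567, 0.285 and 0.577), but not throughout for wild type and GLUT3KO (0.721, 0.622 and -0.354). In the acetate comparisons the replicate block paired libraries within each genotype. In all others, ACLY loss included, it was 1 effect per replicate number shared by all 18 libraries. It thus did not pair wild type with ACLYKO alone. The alternatives were another pseudocount (0.1), no filter or a mean of at least 5 TPM, median-ratio and quantile scaling, only the groups compared, voom on recovered reads, the replicate block, leaving out the 5 libraries that stood apart, and leaving out each library. The main limma fit was tested on simulated data, with noise drawn independently for each library. The other steps were not.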

Additional observations from a re-analysis of the deposited data

Results flagged for a closer look

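For 5 members the acetate change of ACLYKO was tested to differ from that of wild type. The difference was 2.61 ± 0.46 (SE, log2) for Gm16350 (limma, adjusted p = 0.0109), with the 3 ACLYKO libraries at 1.68, 7.696 and 6.45 TPM and 19.2, 25.9 and 25.03 with acetate, where wild type went from 29.9, 22.03 and 18.1 to 18.8, 14.5 and 14.6. It was 2.03 without the libraries that stood apart. For Gm13546 it was 1.86 ± 0.34 (adjusted p = 0.013), lost under quantile normalization (0.0583) and in a fit of only these groups (0.066). Gm19585 differed by 1.77 ± 0.35 (adjusted p = 0.0221), B230118I11Rik by 1.71 ± 0.36 (adjusted p = 0.0307; 2.43 with a pseudocount of 0.1) and 4930417O13Rik by 1.71 ± 0.40 (adjusted p = 0.0492; 1.09 without the libraries that stood apart). B230118I11Rik and 4930417O13Rik lost the call under the replicate block, with adjusted p of 0.0582 and 0.131, and of the 21 alternatives 9, 11 and 16 ended the calls of Gm19585, B230118I11Rik and 4930417O13Rik. Of the exon bases of Gm16350 21.5% lie over exons of protein-coding genes on the other strand, and the part of shared reads in its values was not tested.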

How the results depend on the processing

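Over 146 calls of named members 2202 alternative values were computed. Of these, 1856 stayed on the same side of the threshold, 346 passed it no longer and 0 changed direction. The counts of members called moved more, and counts over all genes are set beside the largest shifts. ACLY loss gave 22, but 4 in a fit of only the groups compared, 34 with the replicate block and 57 without the 5 libraries that stood apart. Over all genes the main fit called 2715 and these fits 342, 3292 and 7068. Acetate in wild type gave 11, but 7 under voom and 34 without those libraries, and 4 to 8 leaving out 1 library. Over all genes the main fit called 925, voom 977 and the fit without those libraries 3889. Acetate in GLUT3KO gave 27, and 13 to 30 leaving out 1 library. Acetate in ACLYKO gave 31, but 6 with only the groups compared and 55 without the 5. Over all genes the main fit called 2458 and these fits 424 and 5783. GLUT3 loss with acetate gave 37, but 71 with only the groups compared and 70 without the 5. Over all genes the main fit called 4329 and these fits 9393 and 9350, so the count moved for the table as a whole. ACLY loss with acetate gave 14, but 33 and 41 in the like fits, and 6 to 12 leaving out 1 library. Over all genes the main fit called 1925 and the like fits 3459 and 5376. GLUT3KO against ACLYKO gave 44, but 23 with only those groups, where 5746 and 2440 of all genes were called. The acetate difference of GLUT3KO gave 0, but 1 without the 5, and that of ACLYKO gave 5, but 3 under quantile normalization, 0 with only those groups and 15 without the 5, and 2 to 6 leaving out 1 library. Over all genes the acetate difference of ACLYKO gave 191, but 162 under quantile normalization, 56 with only those groups and 1022 without the 5. GLUT3 loss gave 34, and 29 to 43 leaving out 1 library.

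The replicate block, for ACLY loss 1 effect per replicate number over all 18 libraries, added Snhg1, Zfas1, Malat1, Xist and 8 others to its calls. For acetate, where the block paired libraries within each genotype, it gave totals of 8, 28 and 38. It ended the calls of Norad and Oip5os1 and 3 others in wild type, of Norad, Rab10os and 4 others in GLUT3KO and of Oip5os1 in ACLYKO. The other comparisons between genotypes gave 45 (GLUT3 loss), 47 and 19 (GLUT3 and ACLY loss with acetate) and 49 (GLUT3KO against ACLYKO) with the block. Without the 5 libraries GLUT3KO rests on 1 library, assumed to vary like the other groups. Recovered reads limit low values: Gm35082 was at 0 reads in ACLYKO and H19 at 2 in wild type. Causes of these shifts were not tested.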
